A study of Mus musculus with 12 samples.

Results

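Wnt proteins are secreted ligands that bind Frizzled receptors on the cell surface. In the canonical branch a Frizzled and the co-receptor Lrp5 or Lrp6 act through the Dishevelled adaptors to stop a complex of Axin, Apc and Gsk3b from marking beta-catenin (Ctnnb1) for destruction, so that beta-catenin enters the nucleus and works with Lef1 and the Tcf7-like factors. In the non-canonical branches ligands such as Wnt5a act through Frizzleds, Ror1, Ror2 and Ryk on small GTPases, cell polarity and calcium, and in hematopoietic stem cells (HSCs) Wnt5a has been tied to the small GTPase Cdc42, to loss of polarity and to ageing.

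The Wnt genes described here are every gene of the expression table whose symbol is Wnt or Fzd followed by digits and at most 1 letter, together with 16 named co-receptors, adaptors and intracellular components. This gave 45 of 22548 genes. They comprise 11 canonical ligands, 4 non-canonical ligands (Wnt4, Wnt5a, Wnt5b and Wnt11), 4 ligands assigned to neither branch (Wnt6, Wnt9a, Wnt9b and Wnt16), 10 Frizzled receptors, the canonical co-receptors Lrp5 and Lrp6, the non-canonical co-receptors Ror1, Ror2 and Ryk, 3 Dishevelled adaptors and 8 canonical intracellular components. The assignment of a ligand to a branch follows its usual textbook activity, although several ligands can act in both.

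RNA was sequenced from 12 samples of sorted long-term HSCs of C57BL/6 mice, and the groups differ in the age of the mice and in treatment. Young HSCs (n = 4, replicates 2 to 5) came from mice of 2 to 4 months, and aged HSCs (n = 5, replicates 0 and 2 to 5) from mice of 20 to 26 months. Aged CASIN-treated HSCs (n = 3, replicates 1 to 3) were aged cells given 5 µM CASIN, an inhibitor of Cdc42 activity. Cells of all groups were kept for 16 h at 37 °C in balanced salt solution with serum, under 3% O2 with 5% CO2, so no library describes cells taken straight from the marrow. Each library was amplified from at least 200 cells by the labels. The methods of the study name a larger pool of cells per library, and this difference between the sources could not be settled here.

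The values are log2 expression values that had been quantile normalized. In each library many genes, from 2535 to 16470, share that library's lowest value, which lay between 0 and 0.671, and a gene was counted as detected where it stood above it. Young libraries detected 6078 to 9673 genes, aged libraries 11463 to 17621 and CASIN-treated libraries 6845, 20013 and 7288, so that CASIN replicate 2 stood apart from the other CASIN-treated libraries. Sequencing depth is unknown, and the lowest value cannot be read as absence. Hprt, a gene of ordinary metabolism, was above it in 2 libraries, and Kit and Ly6a, which encode proteins by which these cells were sorted, were each above it in 4 of 12 libraries, whereas the stem cell transcription factor genes Meis1 and Hlf were detected in 12 and 11. Hprt was the least detected of 8 housekeeping genes examined, of which Actb, Gapdh and Eef1a1 were detected in all 12 libraries. The T cell gene Cd3d stood between 8.26 and 9.98 in all 12 libraries although Cd3e was detected in 6, and its part in the results was not tested. Whether the values stand beside the right gene symbols could not be checked without the reads, so that every gene value given here rests on the symbols as deposited. In such bulk samples fewer cells of a type and less RNA per cell cannot be told apart.

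Transcripts of the Wnt genes were detected in HSCs more often than those of the average gene, and more of them in aged than in young libraries. Apc, Fzd3, Fzd5, Gsk3b, Lef1 and Lrp6 were detected in all 12 libraries, which is 13.3% of the 45 genes beside 9.50% of all genes. In at least 6 libraries 35 of the 45 were detected (77.8%, against 51.4% of all genes), 8 were detected in 3 to 5 libraries, and the canonical ligand genes Wnt8a and Wnt10a in no more than 2. Of the 45 genes, 43 would pass a filter of detection in 3 libraries, and none was removed from the tests.

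The young libraries detected 17, 26, 23 and 17 of the 45 genes, the aged libraries 33, 41, 27, 31 and 33, and the CASIN-treated libraries 18, 44 and 22. Young and aged libraries did not overlap in this number, but they did not overlap in the number of all genes detected either. In each of the 12 libraries the share of Wnt genes was above the share of all genes. Pooled over the libraries of a group, 46.1% of Wnt gene values were detected in young, 73.3% in aged and 62.2% in CASIN-treated HSCs, beside 34.3%, 62.6% and 50.5% of all genes.

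The difference between young and aged HSCs in detection was uneven among the lists. Canonical ligand genes were detected in 8 of 44 gene and library pairs in young HSCs (18.2%), in 32 of 55 in aged HSCs (58.2%) and in 12 of 33 after CASIN (36.4%). For the 4 non-canonical ligand genes it was 11 of 16 (68.8%), 13 of 20 (65%) and 7 of 12 (58.3%), so that the share was no lower in young than in aged HSCs, where it was lower for all genes. Young and aged HSCs were also close for the 2 canonical co-receptor genes (87.5%, 90% and 66.7%) and the 3 Dishevelled genes (50%, 53.3% and 55.6%). Near-equal shares were thus not particular to the non-canonical ligand genes. For Frizzled genes the shares were 45%, 84% and 73.3%, and for canonical intracellular genes 65.6%, 90% and 91.7%. The 3 non-canonical co-receptor genes had 41.7%, 66.7% and 55.6%. No test was made of these shares, since the genes of a list share their libraries.

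At the level of single genes, 9 members stood at the lowest value in all 4 young libraries, namely the ligand genes Wnt2, Wnt2b, Wnt3a, Wnt7b, Wnt8a and Wnt10a, all of them canonical, the receptor genes Fzd8 and Fzd9, and Axin1. That is 20% of the 45 genes, beside 34.6% of all genes. In aged HSCs a single member, Wnt5b, was at the lowest value in every library, which is 2.22% of the 45 genes beside 6.12% of all genes. Wnt5a was the only ligand gene detected in all 4 young libraries, whereas Wnt2b, Wnt4, Wnt8b and Wnt9b were the ligand genes detected in all 5 aged libraries, and Wnt4 alone among the ligand genes in all 3 CASIN-treated libraries.

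**Figure D1:**
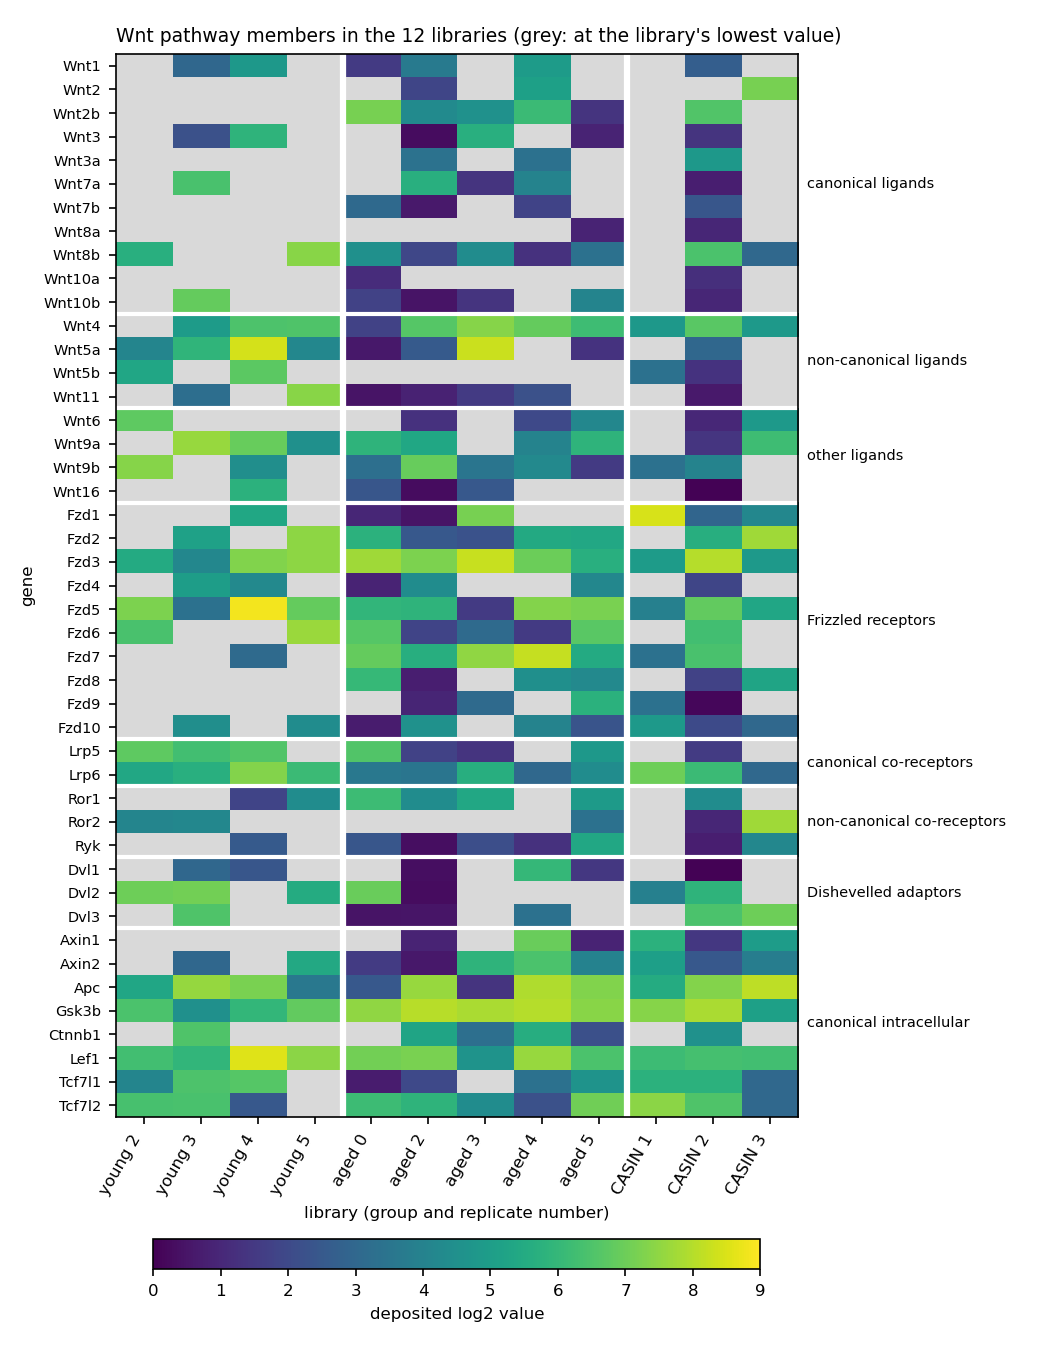
Deposited log2 values of the 45 Wnt genes (rows, ordered by role) in the 12 libraries (columns, by group and replicate), with grey for a value at the library's lowest. Grey is frequent among the canonical ligands of the young libraries, where 8 of 44 values were detected, and rare in CASIN replicate 2, where 44 of 45 genes were.

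**Figure D2:**
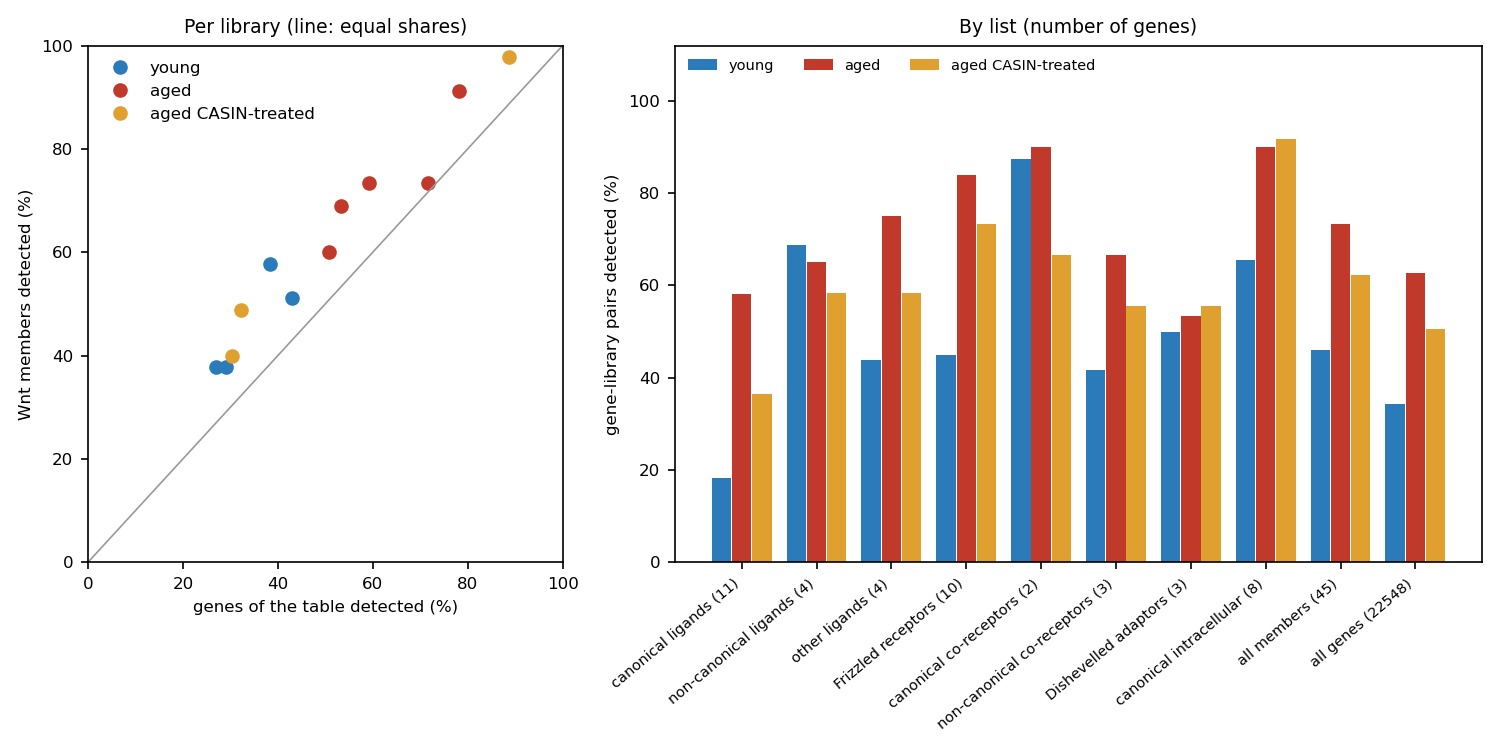
Left, share of the 45 Wnt genes detected in each library (%) against the share of all 22548 genes (%), with a line of equal shares. All 12 libraries lie above the line. Right, share of gene and library pairs detected (%) in each list for the 4 young, 5 aged and 3 CASIN-treated libraries; canonical ligands go from 18.2% to 58.2% between young and aged, and non-canonical ligands from 68.8% to 65%.

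Differences between groups were tested with limma in one fit of the 12 libraries, and a gene was called where the unadjusted p was under 0.05. None of the 45 genes had an adjusted p under 0.05 in any comparison, so every call given here is one that did not pass correction over all genes. Each exact p is from a two-sided permutation test of the libraries of both groups, which could go no lower than 0.00794 for young against aged, 0.0179 for CASIN-treated against aged and 0.0286 for young against CASIN-treated HSCs.

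The first comparison asks how ageing altered the Wnt genes. Between young and aged HSCs Fzd7, Wnt2b and Gsk3b were lower in young, and Lrp6 and Wnt5b higher in young. These 5 calls are 11.1% of the 45 genes, beside 5.33% of all genes, and they divide into 2 that were higher in young (2.13% of all genes) and 3 that were lower (3.20% of all genes). At an adjusted p under 0.05 no Wnt gene and 0.0177% of all genes were called. In 3 members, Fzd7, Wnt2b and Gsk3b, the young and aged libraries did not overlap after all libraries were given one common lowest value, beside 1.96% of all genes. The median difference of the 45 genes was 0.11 on the log2 scale, beside -0.017 for all genes, with 24 genes above 0 and 21 below.

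Fzd7, at chr1:59482424-59486955 on the plus strand (mm10), encodes a Frizzled receptor that is used by both branches. Its values were 0.67, 0.48, 3.11 and 0.65 in the young libraries, 6.89, 5.63, 7.49, 8.22 and 5.51 in the aged libraries and 3.34, 6.40 and 0.58 in the CASIN-treated libraries. Every aged library stood above every young library, of which replicate 4 was the single one above its lowest value. The mean was 5.52 log2 units lower in young than in aged HSCs (SE 1.10, adjusted p = 0.377 in limma, exact permutation p = 0.00794, the smallest possible). With the share of detected genes as a covariate the difference was -4.05 (SE 1.25, adjusted p = 0.925), and it was the only one of the 5 called then. Since 3 young libraries are at their lowest value, the difference depends on where that value lies and is no fold change between 2 measured levels.

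Gsk3b encodes the kinase that phosphorylates beta-catenin for destruction and lies at chr16:38089001-38246084 on the plus strand. It was detected in all 12 libraries, with values of 6.44, 4.52, 5.96 and 6.83 in young, 7.52, 8.05, 7.84, 8.0 and 7.40 in aged and 7.37, 7.86 and 5.13 in CASIN-treated HSCs. The aged libraries were close together (SD 0.29, against 1.01 in young), and all were above all young libraries. The difference was -1.82 (SE 0.63, adjusted p = 0.764, exact permutation p = 0.00794). It was not called with the detection covariate or without young replicate 3, where Gsk3b was lowest.

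Fzd7 and Gsk3b are the members with measured values in every aged library that were lower in each young library and whose promoter sequence was held by the reference used here, and the 250 bases before their RefSeq start (GRCm38.p6, the plus strand for both) are shown for that reason, with CCAAT boxes, GC boxes and TATA boxes in capitals on either strand. Wnt2b, the other gene of this kind, has its window partly within its own annotated span and is not shown. The Fzd7 window is chr1:59481897-59482146 and the Gsk3b window chr16:38088751-38089000.
Fzd7: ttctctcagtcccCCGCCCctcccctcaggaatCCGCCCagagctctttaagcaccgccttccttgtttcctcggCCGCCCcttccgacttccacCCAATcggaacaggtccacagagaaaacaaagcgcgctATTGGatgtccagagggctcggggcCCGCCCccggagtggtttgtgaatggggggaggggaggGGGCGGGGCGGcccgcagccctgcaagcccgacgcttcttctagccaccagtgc
Gsk3b: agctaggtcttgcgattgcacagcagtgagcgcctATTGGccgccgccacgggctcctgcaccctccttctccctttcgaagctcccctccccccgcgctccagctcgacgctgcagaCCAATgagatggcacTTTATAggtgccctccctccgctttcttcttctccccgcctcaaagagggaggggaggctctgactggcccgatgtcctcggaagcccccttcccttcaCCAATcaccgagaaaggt

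The Fzd7 window holds 65.2% G and C, 17 CpG, 6 GC boxes (GGGCGG or its reverse complement CCGCCC) and 2 CCAAT boxes (CCAAT or ATTGG). The Gsk3b window holds 62% G and C, 15 CpG, 3 CCAAT boxes, 1 TATA box (TATAAA or TTTATA) and no GC box. Over 32851 RefSeq promoters of the same length the medians were 52.4% G and C and 6 CpG. A GC box was found in 32.7% of all promoters and in 78% of the 41 promoters listed for 33 of the Wnt genes, a CCAAT box in 33.8% and 26.8%, and a TATA box in 12.4% and 17.1%. The core letters of the element bound by Lef1 and the Tcf7-like factors, CTTTGAT or ATCAAAG, were in 3.21% of all promoters and in 2 of the 41, at Wnt11 and Wnt5b, and in neither window shown. GC boxes that follow each other directly share bases here, and a match is a run of letters and not a binding site.

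Wnt2b, a canonical ligand gene at chr3:104945272-104961921 on the minus strand, was at the lowest value in all young libraries, with values of 0.67, 0.48, 0.43 and 0.65. It had 7.15, 4.31, 4.54, 6.12 and 1.36 in aged and 0.63, 6.56 and 0.58 in CASIN-treated libraries. All 5 aged libraries and CASIN replicate 2 thus stood above the young libraries, and CASIN replicates 1 and 3 were at their lowest value. The difference between young and aged HSCs was -4.14 (SE 1.37, adjusted p = 0.764, exact permutation p = 0.0159). With the detection covariate, and without young replicates 2 and 5, it was not called.

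Wnt5b, a non-canonical ligand gene on the minus strand of chromosome 6, went the other way. It had 5.33 and 6.73 in young replicates 2 and 4 and the lowest value, 0.48 and 0.65, in replicates 3 and 5. The aged libraries were all at their lowest value, 0.07, 0.02, 0.23, 0.22 and 0.16, and the CASIN-treated libraries had 3.34, 1.33 and 0.58. The difference of 3.16 between young and aged HSCs (SE 1.24, adjusted p = 0.764, exact permutation p = 0.00794) therefore rests on 2 young libraries. With one common lowest value the exact permutation p was 0.167, and the call was lost then, with the detection covariate and without young replicate 2 or 4.

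Lrp6, the co-receptor gene at chr6:134446476-134566965 on the minus strand, was detected throughout. Its values were 5.41, 5.67, 7.32 and 6.13 in young, 3.59, 3.49, 5.64, 3.03 and 4.37 in aged and 7.0, 6.13 and 3.03 in CASIN-treated HSCs. Aged replicate 3 lay above young replicate 2, and otherwise young libraries were higher. The difference was 2.11 (SE 0.84, adjusted p = 0.764, exact permutation p = 0.0238), and the call was lost in 9 of 22 alternatives, among them the detection covariate and the leaving out of aged replicate 0, 2 or 4 or of young replicate 4 or 5.

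All 5 genes kept their direction in the 22 alternatives, but the number of calls did not stay the same. Centring each library on the genes that all libraries detected moved the median difference of all genes between young and aged HSCs by 0.45. It called 6 Wnt genes (13.3%, beside 6.42% of all genes in that fit), 3 of them higher in young. Dvl2 was the sixth (difference 3.90, SE 1.74, adjusted p = 0.549). The share of calls over all genes that were higher in young was 39.9% as deposited, 75.2% after centring and 28% with one common lowest value. The median of the 45 genes was 0.56 after centring and -0.10 with one common lowest value, so its sign is not settled. Young libraries detected fewer genes than aged libraries. With the share of detected genes as a covariate 1 Wnt gene, Fzd7, was called in place of 5 (2.22%, beside 4.99% of all genes in that fit).

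The second comparison asks what inhibition of Cdc42 did to the Wnt genes of aged HSCs. Fzd7 alone was called. This is 2.22% of the 45 genes beside 4.40% of all genes, or 0 higher beside 2.48% and 1 lower beside 1.92% of all genes. At an adjusted p under 0.05 no Wnt gene was called, beside 0.0222% of all genes, and no Wnt gene was free of overlap between the groups, beside 2.11% of all genes. The median difference of the 45 genes was -0.33, beside -0.038 for all genes, and 0.02 after centring, which moved all genes by 0.35. Of the calls over all genes 56.3% were higher after CASIN as deposited, 81.7% after centring and 45.9% with one common lowest value. After centring Dvl3 was called beside Fzd7 (difference 4.09, SE 1.72, adjusted p = 0.879). That is 4.44% of the 45 genes, beside 5.27% of all genes in that fit.

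Fzd7 was 3.31 log2 units lower after CASIN than in aged HSCs (SE 1.20, adjusted p = 0.948, exact permutation p = 0.0536). CASIN replicates 1 and 3 were below all aged libraries and CASIN replicate 2 was within their range. Without CASIN replicate 2, the library with the most genes detected, the difference was -4.79 (SE 1.07, adjusted p = 0.214), and 4 Wnt genes were called, all lower after CASIN, which is 8.89% of the 45 genes beside 7.18% of all genes in the same fit. The others were Wnt2b with -4.09 (SE 1.24, adjusted p = 0.54), Fzd3 with -2.28 (SE 0.96, adjusted p = 0.667) and Ror1 with -3.61 (SE 1.55, adjusted p = 0.687). Without CASIN replicate 3, in which Fzd7 was at its lowest value, Fzd7 was 1.88 lower and was not called. Fzd7 was not called either with a term for each replicate number (the replicate block, difference -2.82). The calls there were Dvl3 and Wnt9b (4.44%, beside 3.99% of all genes in that fit). No other library shares the number of aged replicate 0 or CASIN replicate 1, so that fit takes no difference from them. Without aged replicate 4 the calls also numbered 4 (8.89%, beside 4.38% of all genes in that fit), with Axin1 at 3.56 and Dvl3 at 4.34 above aged HSCs and Fzd7 and Ror1 below. Between young and CASIN-treated HSCs Fzd7 differed by -2.21 (SE 1.26, adjusted p = 1).

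The third comparison sets young against CASIN-treated aged HSCs, and since both other comparisons share the aged libraries it is also the test of whether they differ. Wnt5a and Lrp5 were higher in young and Axin1 was lower. The 3 calls are 6.67% of the 45 genes beside 4.29% of all genes, with 2 higher (1.39% of all genes) and 1 lower (2.90% of all genes). No gene of the table passed an adjusted p under 0.05 in limma (0%), while 968 had an unadjusted p under 0.05. In 2 members, Wnt5a and Axin1, the groups did not overlap, beside 2.07% of all genes. The median of the 45 genes was -0.08, and 0.092 over all genes. These calls depended on single libraries. Wnt5a alone was called without young replicate 2, and Lrp5 alone without aged replicate 2 or 5. None of the 3 was called without young replicate 3 (Dvl3 was), young replicate 4 (Fzd1 and Wnt11), CASIN replicate 1 (Dvl3) or CASIN replicate 3 (Fzd7 and Gsk3b), nor with the replicate block (Fzd8).

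Wnt5a lies at chr14:28504750-28527448 on the plus strand. It was detected in every young library, with values of 4.11, 5.90, 8.43 and 4.15, and had 0.58, 2.56, 8.28, 0.22 and 1.32 in the aged libraries and 0.63, 3.02 and 0.58 in the CASIN-treated libraries. In aged HSCs replicate 3 thus reached the highest young values, and the other 4 libraries were below all young ones. Young replicates 2 and 5 detected 27% and 29.1% of all genes, and their smallest detected values were high. Among the genes examined these were 4.11 in replicate 2, shared by Wnt5a, Ror2, Tcf7l1 and Dkk4, and 3.59 in replicate 5. Aged replicate 2 detected 78.1% of all genes, and there Axin1 counted as detected at 0.89. The part of this step in the Wnt5a differences was not tested. Young and CASIN-treated libraries did not overlap, with a difference of 4.24 (SE 1.83, adjusted p = 1, exact permutation p = 0.0286, the smallest possible), a call that ended without young replicate 3 or 4, aged replicate 2 or 5 or CASIN replicate 1 or 3 and with the replicate block. Between young and aged HSCs the difference was 3.05 (SE 1.61, adjusted p = 0.764, exact permutation p = 0.159) and was not called. Without aged replicate 3 it was 4.48 (SE 1.05, adjusted p = 0.495) and was called. After CASIN Wnt5a differed from aged HSCs by -1.18 (SE 1.75, adjusted p = 0.961, exact permutation p = 0.786), and by 0.24 without aged replicate 3, so that no direction can be given.

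Lrp5, the other canonical co-receptor gene, had 6.76, 6.27, 6.57 and 0.65 in young libraries, 6.54, 1.78, 1.36, 0.22 and 4.79 in aged libraries and 0.63, 1.56 and 0.58 in CASIN-treated libraries. The groups overlapped through young replicate 5, which was at its lowest value. The difference between young and CASIN-treated HSCs was 4.14 log2 units (SE 1.75, adjusted p = 1, exact permutation p = 0.0857), and between young and aged HSCs it was 2.12 (SE 1.53, adjusted p = 0.766). Leaving out any of the CASIN-treated libraries ended the call, as did leaving out young replicate 2, 3 or 4, the replicate block and array weights.

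Axin1, a scaffold of the destruction complex, had 0.67, 0.48, 0.43 and 0.65 in young, 0.07, 0.89, 0.23, 6.94 and 0.89 in aged and 5.80, 1.45 and 4.99 in CASIN-treated libraries. It was at the lowest value in all young libraries and above it in all CASIN-treated ones, and 1 aged library, replicate 4, exceeded them all. The difference between young and CASIN-treated HSCs was -3.52 (SE 1.58, adjusted p = 1, exact permutation p = 0.0286), and this call was lost in 15 of 22 alternatives.

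**Figure D3:**
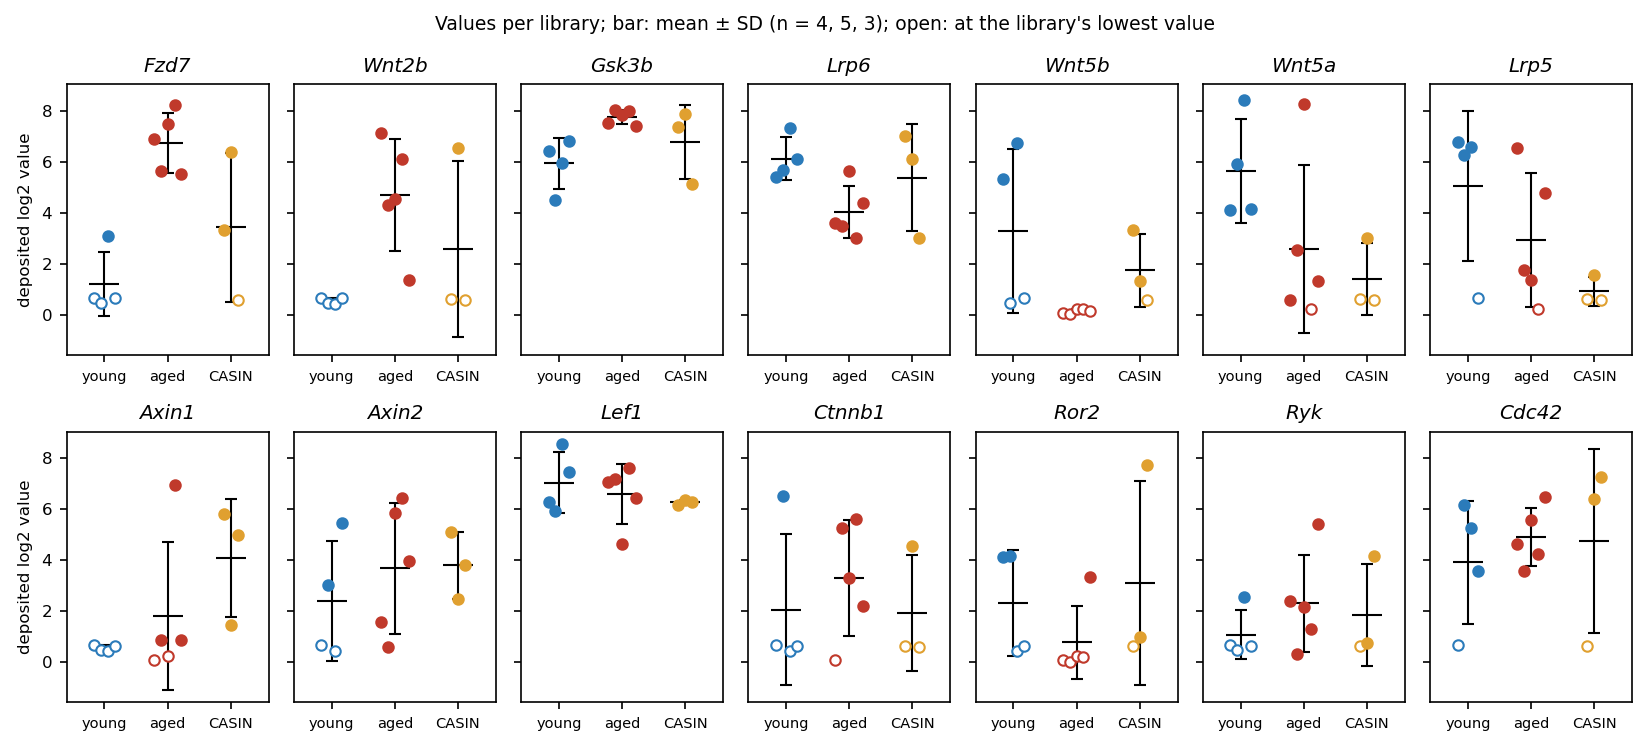
Deposited log2 values of 13 Wnt genes and Cdc42 in each library, with the mean and SD of each group (4 young, 5 aged and 3 CASIN-treated libraries); open points are at the library's lowest value. Fzd7 and Gsk3b separate young from aged libraries, Wnt2b and Axin1 are open in all 4 young libraries, and Wnt5b is open in all 5 aged libraries.

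**Figure D4:**
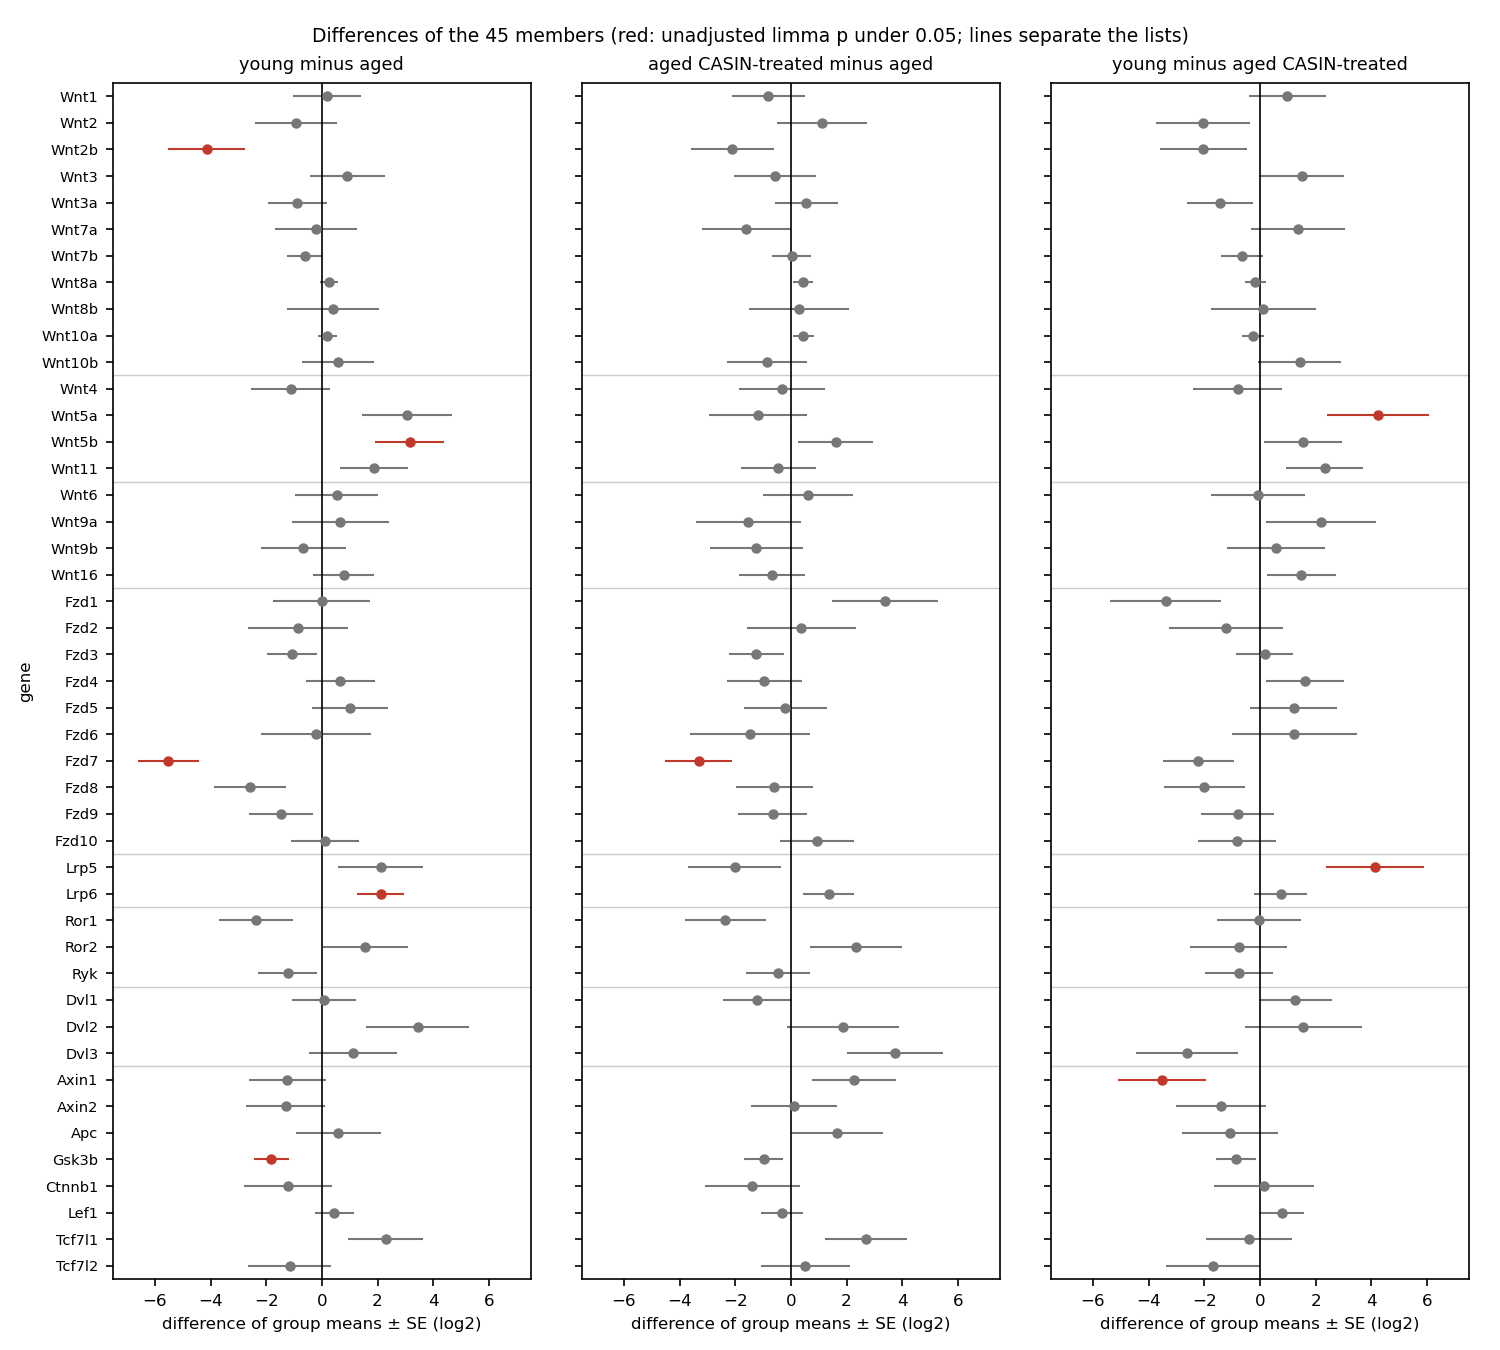
Difference of group means (log2 units, ± SE of the limma fit) for each of the 45 Wnt genes in the 3 comparisons, in red where the unadjusted p was under 0.05. There are 5 red points for young minus aged, 1 for CASIN-treated minus aged and 3 for young minus CASIN-treated.

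Among the other ligand genes no difference was called in any comparison. Wnt4, a non-canonical ligand gene, was detected in 11 libraries and averaged 4.65 ± 2.75 (SD) in young, 5.76 ± 2.27 in aged and 5.44 ± 1.08 in CASIN-treated HSCs. Wnt11 was high in young replicate 5 (7.39) and averaged 2.93 ± 3.23, 1.06 ± 0.83 and 0.61 ± 0.03. Of the 4 non-canonical ligand genes 3, all but Wnt4, thus had a higher mean in young than in aged HSCs, with 1 of them called, and the median of the 4 differences was 2.46. Of the 11 canonical ligand genes 6 had a higher and 5 a lower mean in young HSCs, with a median of 0.18. Among the 6 were Wnt8a and Wnt10a, which were at the lowest value in all 4 young libraries. Their young mean of 0.56, against 0.29 and 0.36 in aged HSCs, is made of lowest values. The count and the median thus depend on where those values lie.

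Wnt8b was the canonical ligand gene detected most often, in 9 libraries, and averaged 3.49 ± 3.58 in young, 3.08 ± 1.44 in aged and 3.37 ± 2.93 in CASIN-treated HSCs. Wnt1 averaged 2.29 ± 2.01, 2.11 ± 2.14 and 1.30 ± 1.21. Wnt3 averaged 2.35 ± 2.45, 1.43 ± 2.40 and 0.85 ± 0.43, and Wnt10b 2.16 ± 3.15, 1.58 ± 1.53 and 0.73 ± 0.22. In each the SD of the young and that of the aged libraries were larger than the distance between their means, and the groups overlapped. Of the ligand genes of neither branch, Wnt9a averaged 4.93 ± 3.14, 4.27 ± 2.38 and 2.74 ± 3.02, Wnt9b 3.23 ± 3.30, 3.89 ± 1.96 and 2.65 ± 1.83, and Wnt6 2.08 ± 3.12, 1.54 ± 1.65 and 2.16 ± 2.34. Wnt2, Wnt3a, Wnt7a, Wnt7b and Wnt16 were detected in 3 to 5 libraries. Their highest values ranged from 3.06 for Wnt7b to 7.16 for Wnt2.

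Frizzled receptor genes apart from Fzd7 were not called either. Fzd3, detected in every library, averaged 6.10 ± 1.57 in young, 7.17 ± 0.96 in aged and 5.93 ± 1.79 in CASIN-treated HSCs. Fzd5, detected as widely, averaged 6.58 ± 2.31, 5.57 ± 2.35 and 5.36 ± 1.46. Fzd8 was at the lowest value in all young libraries and had 6.02, 0.74, 0.23, 4.49 and 4.24 in aged and 0.63, 1.79 and 5.26 in CASIN-treated libraries. The difference of -2.58 between young and aged HSCs (SE 1.28, adjusted p = 0.764, exact permutation p = 0.127) was within the overlap of the groups. Fzd1 was highest in CASIN replicate 1 (8.46) and averaged 1.79 ± 2.38 in young, 1.80 ± 3.01 in aged and 5.18 ± 2.90 in CASIN-treated HSCs, a difference of 3.38 between CASIN-treated and aged HSCs (SE 1.89, adjusted p = 0.948).

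The remaining Frizzled genes varied within each group. Fzd2 averaged 3.43 ± 3.46 in young, 4.28 ± 1.76 in aged and 4.65 ± 3.64 in CASIN-treated HSCs. Fzd4 averaged 2.64 ± 2.30, 1.98 ± 2.11 and 1.02 ± 0.73, Fzd6 3.74 ± 3.82, 3.96 ± 2.53 and 2.50 ± 3.28, and Fzd10 2.47 ± 2.22, 2.37 ± 1.94 and 3.31 ± 1.43. Fzd9 was detected in 5 libraries, none of them young, with a highest value of 5.76. Over the 10 Frizzled genes 3 had a higher and 7 a lower mean in young than in aged HSCs, with a median of -0.53 beside -0.017 for all genes, and 42 of 50 aged values were detected against 18 of 40 young values.

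Of the non-canonical co-receptors, Ror2, a receptor kinase for Wnt5a, had 4.11, 4.16, 0.43 and 0.65 in young, 0.07, 0.02, 0.23, 0.22 and 3.35 in aged and 0.63, 0.98 and 7.72 in CASIN-treated libraries. Its highest value was that of CASIN replicate 3, and it was at the lowest value in 7 libraries. The difference between young and aged HSCs was 1.56 (SE 1.52, adjusted p = 0.818), and between CASIN-treated and aged HSCs 2.33 (SE 1.65, adjusted p = 0.948). Ryk, an atypical receptor kinase, had 0.67, 0.48, 2.54 and 0.65 in young, 2.40, 0.32, 2.15, 1.30 and 5.40 in aged and 0.63, 0.74 and 4.15 in CASIN-treated libraries. All aged libraries detected Ryk against 1 young library, yet the values overlapped and the difference was -1.23 (SE 1.07, adjusted p = 0.8). Ror1 averaged 1.84 ± 1.79 in young, 4.21 ± 2.33 in aged and 1.87 ± 2.19 in CASIN-treated HSCs, with differences from aged HSCs of -2.37 (SE 1.34, adjusted p = 0.764) and -2.35 (SE 1.46, adjusted p = 0.948). Neither was called, and aged replicate 4, at its lowest value, was the aged library that did not detect Ror1.

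The Dishevelled genes, whose products relay the signal from Frizzleds in both branches, were detected in 6 or 7 libraries each. Dvl2 averaged 5.01 ± 3.14 in young, 1.57 ± 3.00 in aged and 3.45 ± 2.67 in CASIN-treated HSCs. In aged HSCs replicate 0 stood at 6.93 and the other 4 libraries between 0.16 and 0.29, against 7.0, 7.08, 0.43 and 5.55 in young HSCs. The difference was 3.45 (SE 1.85, adjusted p = 0.764, exact permutation p = 0.0952). Dvl3 averaged 2.07 ± 2.97, 0.95 ± 1.35 and 4.69 ± 3.53, with 6.44 and 7.0 in CASIN replicates 2 and 3. It differed by 3.74 between CASIN-treated and aged HSCs (SE 1.74, adjusted p = 0.948, exact permutation p = 0.0357, and 0.107 with one common lowest value), which was not called in the fit of all libraries. Dvl1 averaged 1.69 ± 1.21, 1.61 ± 2.51 and 0.41 ± 0.33.

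Among the intracellular components, Ctnnb1, which encodes beta-catenin, had 0.67, 6.51, 0.43 and 0.65 in young, 0.07, 5.27, 3.30, 5.61 and 2.21 in aged and 0.63, 4.54 and 0.58 in CASIN-treated libraries. It was detected in 1 of 4 young, 4 of 5 aged and 1 of 3 CASIN-treated libraries, and the groups overlapped (young against aged -1.22, SE 1.58, adjusted p = 0.867). Lef1, a partner of beta-catenin on DNA, was detected throughout with 6.26, 5.91, 8.55 and 7.45 in young, 7.08, 7.20, 4.62, 7.61 and 6.44 in aged and 6.16, 6.34 and 6.29 in CASIN-treated libraries. The CASIN-treated libraries lay close together (SD 0.09) and inside the range of both other groups, and the difference between young and aged HSCs was 0.45 (SE 0.70, adjusted p = 0.887). Axin2, a canonical target gene that feeds back on the pathway, had 0.67, 3.02, 0.43 and 5.44 in young, 1.57, 0.58, 5.84, 6.44 and 3.98 in aged and 5.09, 2.48 and 3.82 in CASIN-treated libraries. All aged and CASIN-treated libraries detected it, against 2 of 4 young libraries. The differences were -1.29 between young and aged HSCs (SE 1.42, adjusted p = 0.843) and 0.12 between CASIN-treated and aged HSCs (SE 1.55, adjusted p = 0.999).

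Apc, a component of the destruction complex, averaged 5.92 ± 1.83 in young, 5.33 ± 3.15 in aged and 6.99 ± 1.33 in CASIN-treated HSCs. Tcf7l1, which mostly acts as a repressor of Wnt targets, averaged 4.47 ± 2.80, 2.17 ± 1.83 and 4.86 ± 1.59, with differences from aged HSCs of 2.30 in young (SE 1.35, adjusted p = 0.764) and 2.69 after CASIN (SE 1.47, adjusted p = 0.948). Tcf7l2 averaged 3.98 ± 2.89, 5.14 ± 1.89 and 5.66 ± 2.33. None of the 3 genes was called in any comparison. Of the 8 intracellular genes 5 had a lower mean in young than in aged HSCs, with a median of -1.19.

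When the branches were set side by side, the 21 canonical genes had a median difference of 0.18 between young and aged HSCs and the 7 non-canonical genes 1.56, and after CASIN the medians were 0.12 and -0.45. Genes at the lowest value in a whole group, such as Wnt8a and Wnt10a in young HSCs, are part of these medians. Between young and aged HSCs 3 of 21 canonical genes and 1 of 7 non-canonical genes were called, beside 5.33% of all genes, and the 1 was Wnt5b, whose call rests on 2 libraries. The mean of the non-canonical genes minus that of the canonical genes was -0.30, -0.75, 0.96 and 1.26 in the young libraries, -0.98, -0.98, 1.05, -2.14 and 0.19 in the aged libraries and -1.17, -1.18 and 0.15 in the CASIN-treated libraries. The 3 groups overlapped in this measure, which was not tested. In each of the 3 groups libraries lay on both sides of 0.

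Cdc42 itself, at chr4:137319696-137357720 on the minus strand, had 0.67, 6.15, 5.27 and 3.59 in young, 4.62, 3.57, 5.59, 4.24 and 6.46 in aged and 0.63, 6.39 and 7.25 in CASIN-treated libraries. Young replicate 2 and CASIN replicate 1 were at their lowest value, and the other libraries of the 3 groups overlapped. The difference was -0.98 between young and aged HSCs (SE 1.45, adjusted p = 0.883) and -0.14 between CASIN-treated and aged HSCs (SE 1.58, adjusted p = 0.999). CASIN inhibits the activity of the protein, which RNA does not measure.

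A further 78 genes of the pathway were examined in lists of ligand release, secreted inhibitors, R-spondins with their receptors and ligases, canonical intracellular genes, canonical targets, planar cell polarity, the calcium branch, and a list around Cdc42. Of these, 1 was called between young and aged HSCs (1.28%), 8 in the comparison of CASIN-treated with aged HSCs (10.3%) and 7 in that of young with CASIN-treated HSCs (8.97%), beside the shares of all genes given above, and none had an adjusted p under 0.05. None of the 10 canonical targets was called in any comparison, beside 5.33%, 4.40% and 4.29% of all genes. At such shares 10 genes may give no call, so this count is no result about the targets. Of them Myc and Notum were detected in 4 libraries each. The inhibitor genes Dkk1, Dkk2 and Sfrp1 and the ligase gene Znrf3 were detected in all 12 libraries, Dkk1 at 7.81 to 9.51.

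The single call between young and aged HSCs was Rspo1, a secreted enhancer of Wnt signalling, with 5.55, 4.43, 3.93 and 6.33 in young, 1.46, 1.0, 2.02, 0.22 and 2.40 in aged and 4.64, 0.55 and 5.52 in CASIN-treated libraries. Every young library was above every aged one, as were CASIN replicates 1 and 3. The difference was 3.64 (SE 0.97, adjusted p = 0.539, exact permutation p = 0.00794), and it was lost with the detection covariate and without young replicates 2 and 5.

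After CASIN the GTPase gene Rac1 stood at 0.63, 0.29 and 0.58, against 0.86, 6.39, 6.11, 5.10 and 1.54 in aged and 7.27, 2.85, 6.71 and 4.15 in young libraries. CASIN replicates 1 and 3 were at their lowest value and replicate 2 was near its own, so the difference depends on where these values lie. All CASIN-treated libraries were below all others, and CASIN-treated HSCs differed from aged HSCs by -3.50 (SE 1.45, adjusted p = 0.948, exact permutation p = 0.0357) and young from CASIN-treated HSCs by 4.75 (SE 1.52, adjusted p = 0.926). Pak2, a kinase activated by Cdc42 and Rac, had 4.94, 3.51 and 3.03 after CASIN and no more than 2.23 in any aged library, a difference of 2.50 (SE 0.90, adjusted p = 0.948). The inhibitor gene Dkk4 was lower after CASIN than in aged HSCs by 1.88 (SE 0.77, adjusted p = 0.948) and than in young HSCs by 2.91 (SE 0.81, adjusted p = 0.827, given as young minus CASIN-treated). It too was at the lowest value in CASIN replicates 1 and 3, with 0.21 in replicate 2. The other calls after CASIN against aged HSCs were Rspo3 and Celsr2, which were higher, and Apc2, Tle1 and Nfatc3, which were lower. Apc2 and Nfatc3 were likewise at the lowest value in CASIN replicates 1 and 3, and Tle1 in replicate 3. Young HSCs further differed from CASIN-treated HSCs in Rspo3, Celsr2, Pak2, Arhgap1 and Prickle2, all lower in young, with Prickle2 at -4.50 (SE 1.38, adjusted p = 0.891). Rspo3 and Arhgap1 were at the lowest value in every young library. Rac1 between young and CASIN-treated HSCs was the one of these calls that held in all 22 alternatives, and against aged HSCs its call was lost in 9.

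Markers of several cell types outside the sorted population were detected in every group, whereas no CASIN-treated library detected an erythroid marker. The summed log2 value of 6 stromal and endothelial genes was 9.7 to 29.0 in young, 15.2 to 37.8 in aged and 15.5 to 27.5 in CASIN-treated libraries, with Cxcl12 at the lowest value in 4 libraries. Of the 6, 2 had a higher and 4 a lower mean in young than in aged libraries, with a median difference of -1.88. One was called, Lepr with -4.12 (SE 0.98, adjusted p = 0.516), while Col1a1 differed by 3.12 (SE 1.45, adjusted p = 0.764) and Pdgfrb by 0.82 (adjusted p = 0.921). Of 8 housekeeping genes 3 had a higher and 5 a lower mean in young than in aged libraries, with a median difference of -0.32. The 1 called was Actb, which was higher in young by 3.63 (SE 0.87, adjusted p = 0.516). The part of these markers in the Wnt values was not tested.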

How the data were processed

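RNA-seq libraries of HSCs, 4 young, 5 aged and 3 aged with CASIN, were grouped by the sample labels. The authors aligned paired-end reads to mm10 with TopHat, processed them with Cufflinks and deposited quantile normalized log2 values for 22548 genes. The steps from Cufflinks to these values are not given in the sources used here. Normalization of this kind gives each library nearly the same distribution, so total RNA cannot be compared. Depth is unknown and no counting interval can be given.

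The values were used as deposited, without a filter. limma 3.58.1 in R 4.3.3 was fitted once to all libraries and 3 groups (moderated test, Benjamini-Hochberg adjustment over all genes), after the script was tested on simulated data. Exact permutation tests used scipy 1.17.1 in Python 3.11.15, and figures matplotlib 3.10.9. The methods of the study describe its replicates as biological, from separate experiments and mice, and the labels do not tie a sample to an animal. The members and lists were chosen with earlier results of these data known. Values are printed by library for members with an unadjusted p under 0.05 and for Wnt5a, Axin2, Lef1, Ctnnb1, Ror2, Ryk and Cdc42, and by group for members detected in at least 6 libraries, with some further values (Fzd8, Dvl2) chosen after they were seen. Of the other pathway genes, those with an unadjusted p under 0.05 are named. Gene positions are from GENCODE M21, promoters from RefSeq (GRCm38.p6).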

Additional observations from a re-analysis of the deposited data

Results flagged for a closer look

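Of 28 groups of 4 or 5 libraries tested for a library far from the rest with Dixon's test, 6 were past its critical value. The test's rate of about 1 chance flag in every 20 groups assumes normally distributed values. Groups with many libraries at the lowest value do not meet this, so the 6 flags cannot be set against that rate. In 4 of the 6 groups a single library was well above others that were at or near their lowest value. These were Fzd7 in young replicate 4 (3.11), Ctnnb1 in young replicate 3 (6.51), Ryk in young replicate 4 (2.54) and Ror2 in aged replicate 5 (3.35). Axin1 in aged replicate 4 was at 6.94 with the other aged libraries at 0.89 or less. Lrp5 in young replicate 5 was the one case of a low library, at its lowest value of 0.65 with the other young libraries at 6.27 or more.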

How the results depend on the processing

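Depth is unknown, and 39 of the 45 genes are at the lowest value in at least 1 library, which limits every difference. The median difference of the 45 genes moved by less than the spread between libraries (SD 1.05) in all alternatives but changed sign in some, with ranges of -0.35 to 0.56 for young against aged, -0.51 to 0.53 for CASIN-treated against aged and -0.39 to 0.09 for young against CASIN-treated HSCs. Between young and aged HSCs 5 Wnt genes were called (11.1%, beside 5.33% of all genes), against 1 with the detection covariate (2.22%, beside 4.99%). With each library left out in turn 4 to 7 were called (8.89% to 15.6%, beside 5.04% to 5.67% of all genes). Between CASIN-treated and aged HSCs 1 was called (2.22%, beside 4.40% of all genes). Centring, a pseudocount of 0.1, the replicate block and leaving out young replicates 2 and 5 (chosen after seeing the data) each gave 2. That is 4.44%, beside 3.97% to 5.75% of all genes in these fits. With genes detected in at least 3 libraries 2 were called (4.65%, beside 4.26%), and with only the 2 groups compared 3 (6.67%, beside 3.92%). With each library left out 1 to 4 were called (2.22% to 8.89%, beside 4.08% to 7.18%). Between young and CASIN-treated HSCs 3 were called (6.67%, beside 4.29% of all genes), against 1 with the replicate block (2.22%, beside 4.77%). With each library left out 1 to 3 were called (2.22% to 6.67%, beside 4.06% to 5.82% of all genes). Of 27 differences of single genes recomputed 1 reversed, that of Wnt5a between CASIN-treated and aged HSCs, which was -1.18 and ran from -1.99 (without CASIN replicate 2) to 0.24 (without aged replicate 3) with each library left out. The common lowest value for overlap and the housekeeping list were also chosen after seeing the data. The deviations of 8 same-numbered pairs of libraries correlated at -0.033 to 0.0576, and those of 39 other pairs at -0.0469 to 0.0332. Correlations this small cannot decide whether the numbers pair the samples, which remains unknown. With the replicate block 5 Wnt genes were called between young and aged HSCs (11.1%, beside 5.20% of all genes), with Dvl2 in place of Lrp6. Neither the call of Fzd7 after CASIN against aged HSCs nor any of the 3 between young and CASIN-treated HSCs was made. This fit takes no difference from aged replicate 0 or CASIN replicate 1, whose numbers no other library has. Without aged replicate 0 the same 5 genes were called between young and aged HSCs. Changes with the block thus cannot be told apart from the loss of these libraries.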

Other observations

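Among the other pathway lists, the 10 secreted inhibitor genes had a median difference of 0.08 between young and aged HSCs and 0.07 between CASIN-treated and aged HSCs, and the 12 planar cell polarity genes -0.37 and 0.23. The 16 genes of the calcium branch had 0.39 and -0.06, with no call between young and aged HSCs and Nfatc3 called after CASIN. Wls and Porcn, which are needed to release Wnt ligands, were detected in 6 and 3 libraries, 4 and 3 of them aged.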
